A study of Mus musculus with 12 samples.

Results

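The 6 genes described here belong to the type I interferon response: Ifi204, Ifih1, Irf7, Stat2, Bst2 and Irgm1. They were chosen by symbol from a NanoString panel of 547 mouse genes, and all 6 were on it and above the filter on low values. The panel counts RNA molecules with barcoded gene-specific probes and was read in 12 males of the C57BL6-NJ background, 3 in each of 4 groups. Wild-type mice and mice lacking sphingosine kinase 2 (SphK2 KO, a constitutive knockout) received normal water and control diet, or sugar water and Western diet. The series calls this an early MASH model (metabolic dysfunction-associated steatohepatitis). The protocol gives 16 weeks of feeding from 12 to 18 weeks of age, which allows an age of up to 238 days, and 4 animals are labelled older; a separate duration label takes 12 different values, from 16 to 27 weeks, and was not used. The labelled ages were 231, 231 and 232 days in wild-type controls, 259, 253 and 250 in knockout controls, 226, 226 and 232 in wild-type Western-diet mice and 221, 217 and 252 in knockout Western-diet mice. The title of the series names the liver as the tissue. The knockout is whole-body, so the cells in which SphK2 loss acts cannot be told apart in these mice, and Sphk2 itself was not on the panel.

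Type I interferons are secreted when sensors in the cell meet foreign or misplaced nucleic acid. Ifi204 and Ifih1 encode such sensors, for DNA and for double-stranded RNA. Irf7 is the transcription factor that drives most interferon alpha genes, and Stat2 is, with Irf9, part of the complex that carries the signal of the interferon receptor to DNA. Bst2 (tetherin, which holds budding virus particles at the cell surface) and Irgm1 (a GTPase that protects mouse cells from pathogens living inside them) are effectors, and Irgm1 answers interferon gamma as well as type I interferon. In the liver these genes are expressed by resident and recruited macrophages, dendritic cells and endothelium, and several also by hepatocytes.

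The complex that holds Stat2 and Irf9, and the interferon regulatory factors, recognise the interferon-stimulated response element (ISRE). Its core, GAAANNGAAA, was searched on both strands from 250 bases before to 50 bases after the annotated start of each gene, and 4 of the 5 genes with a window held it. These windows are printed because they carry the letters that these 4 genes share. The sequences are from RefSeq on build GRCm38.p6, read 5′ to 3′ on the strand of the gene, with the ISRE cores in capitals. Those of Stat2, Bst2 and Irgm1 are the 250 bases before the start, and that of Ifih1 is a short stretch just after it.
Ifih1 (chr2:62646206-62646233, minus strand): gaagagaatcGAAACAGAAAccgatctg
Stat2 (chr10:128270248-128270497, plus strand): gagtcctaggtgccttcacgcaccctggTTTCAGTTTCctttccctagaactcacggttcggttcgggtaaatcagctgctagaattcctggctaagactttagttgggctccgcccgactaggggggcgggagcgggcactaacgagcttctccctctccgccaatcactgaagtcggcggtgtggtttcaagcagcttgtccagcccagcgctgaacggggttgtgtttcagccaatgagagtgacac
Bst2 (chr8:71537473-71537722, minus strand): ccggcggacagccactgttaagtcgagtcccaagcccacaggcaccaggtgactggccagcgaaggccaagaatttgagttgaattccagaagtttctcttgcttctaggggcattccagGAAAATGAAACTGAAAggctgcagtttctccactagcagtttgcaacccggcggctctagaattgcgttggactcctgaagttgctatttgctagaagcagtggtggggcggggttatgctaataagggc
Irgm1 (chr11:48871421-48871670, minus strand): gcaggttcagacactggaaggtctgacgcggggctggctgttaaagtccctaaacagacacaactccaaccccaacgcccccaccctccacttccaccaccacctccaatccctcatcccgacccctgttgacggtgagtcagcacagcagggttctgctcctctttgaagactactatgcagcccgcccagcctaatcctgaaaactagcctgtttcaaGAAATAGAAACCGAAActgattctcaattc

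Bst2 held 2 overlapping cores, which began 130 and 124 bases before the start. Irgm1 also held 2 overlapping cores, at 30 and 24 bases before the start. The core of Stat2 began 222 bases before the start and was read on the opposite strand, and that of Ifih1 began 32 bases after the start. The ISRE core occurred in 3.44% of 32851 mouse promoter windows of this length and in 6.26% of the 495 windows of panel genes. The gamma-activated sequence core, TTCNNNGAA, an element of interferon gamma target genes, was found in the Bst2 window alone of these 5, 136 bases before the start and overlapping the first ISRE core; it occurred in 8.30% of all windows and 12.7% of those of panel genes. Neither core was found in the Irf7 window, and these letters alone do not show binding in these mice. Ifi204 had no window in the table used.

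**Figure D1:**
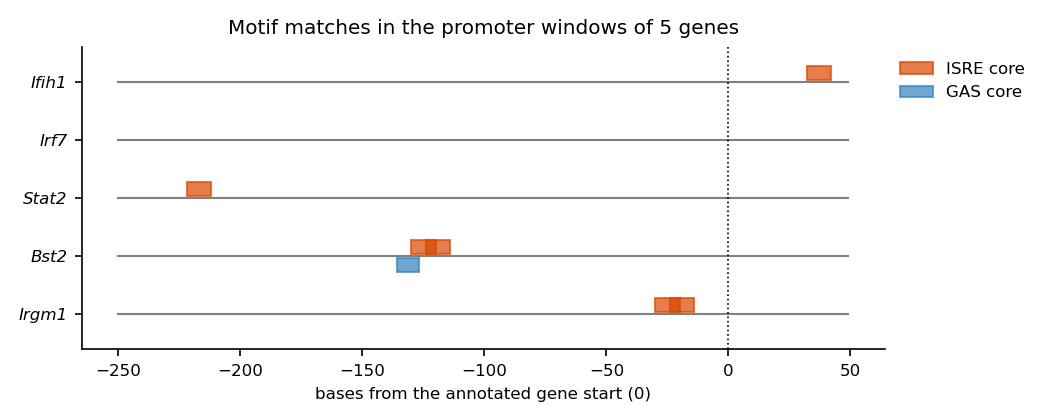
Positions of the ISRE core (orange) and the gamma-activated sequence core (GAS, blue) in the promoter windows of 5 genes, in bases from the annotated gene start at 0. The cores of Bst2 lie 130 and 124 bases before the start, those of Irgm1 at 30 and 24 bases, and the Irf7 line carries none.

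Library totals of recovered whole counts ran from 440842 to 643638. In each library the 6 genes gave from 89 (Ifi204) to 4677 (Bst2) recovered counts, so that the counting error of a single value lay between 1.46% and 10.6%. Genes whose plasma proteins hepatocytes make were abundant in all 12 libraries (8 of 14 on the panel). Replicate 2 of the wild-type Western-diet mice had Ifi204 and Irf7 levels near those of control-diet mice. Replicate 2 of the knockout controls had the highest Ifi204, Ifih1, Irf7, Bst2 and Irgm1 levels of its group. Calls were also made without these 2 libraries. Because the 2 were picked by the levels of the genes under test, calls gained without them carry no independent weight. The labels do not say that these animals came from separate litters or cages. The p-values compare differences between groups with the spread among animals of the same group.

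On the Western diet, 4 of the 6 genes had higher levels in SphK2 knockouts than in wild types: Ifi204, Stat2, Irf7 and Ifih1 (limma with Benjamini-Hochberg adjustment over 453 genes, threshold 0.05). Bst2 and Irgm1 did not pass. This is under the authors' scaling. When libraries were recentred on their median gene, Stat2 (-0.01) and Ifih1 (-0.26) lay below 0. The median difference of all tested genes was then -0.30, and both genes were above it. Of all tested genes 32.2% were higher by the same test, and the median log2 difference was 0.43 over the 6 genes and 0.26 over all tested genes. The libraries of the knockout lay wholly above those of the wild type for these same 4 genes, which held for 41.7% of tested genes. On the control diet, limma called none of the 6 (2.87% of tested genes were called in either direction). An unadjusted p under 0.05 was found for Stat2 (higher), Bst2 and Irgm1 (both lower), and for 77 of the 453 tested genes. A fit of the recovered counts with voom called Bst2, Irf7 and Irgm1 lower, and 18 of the 453 lower. An equal-variance test called none of the 6 and 7 of the 453. None of the 6 was without overlap there, against 23.8% of tested genes. In bulk tissue, more cells of a type and more RNA per cell cannot be told apart.

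The Western diet raised 4 of the 6 genes in knockout mice, namely Ifi204, Irf7, Bst2 and Ifih1, against 37.3% of tested genes called higher. Recentring on the library median put Bst2 (-0.13) and Ifih1 (-0.42) below 0, with the median of all tested genes at -0.46. For these 4 the Western-diet libraries lay above the control-diet libraries, as for 45.5% of tested genes, and for Stat2 they lay below, as for 12.1%. In wild-type mice the diet raised Bst2 and lowered Irgm1, where 4.86% of tested genes were called higher and 3.75% lower. There Ifi204 and Bst2 did not overlap between diets and were higher, as were 15.9% of tested genes, while Stat2 and Irgm1 did not overlap and were lower, as were 12.1%. The difference between the diet effects of the genotypes was called for none of the 6 by limma (1.32% of tested genes). Of the 6, 4 had an unadjusted p under 0.05, as did 142 of the 453 tested genes. A voom fit called 4 of the 6 and 88 of the 453. By the equal-variance test none of the 6 and 8 of the 453 were called. The comparisons share groups: both knockout comparisons use the knockout Western-diet mice, so their calls are not independent.

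**Figure D2:**
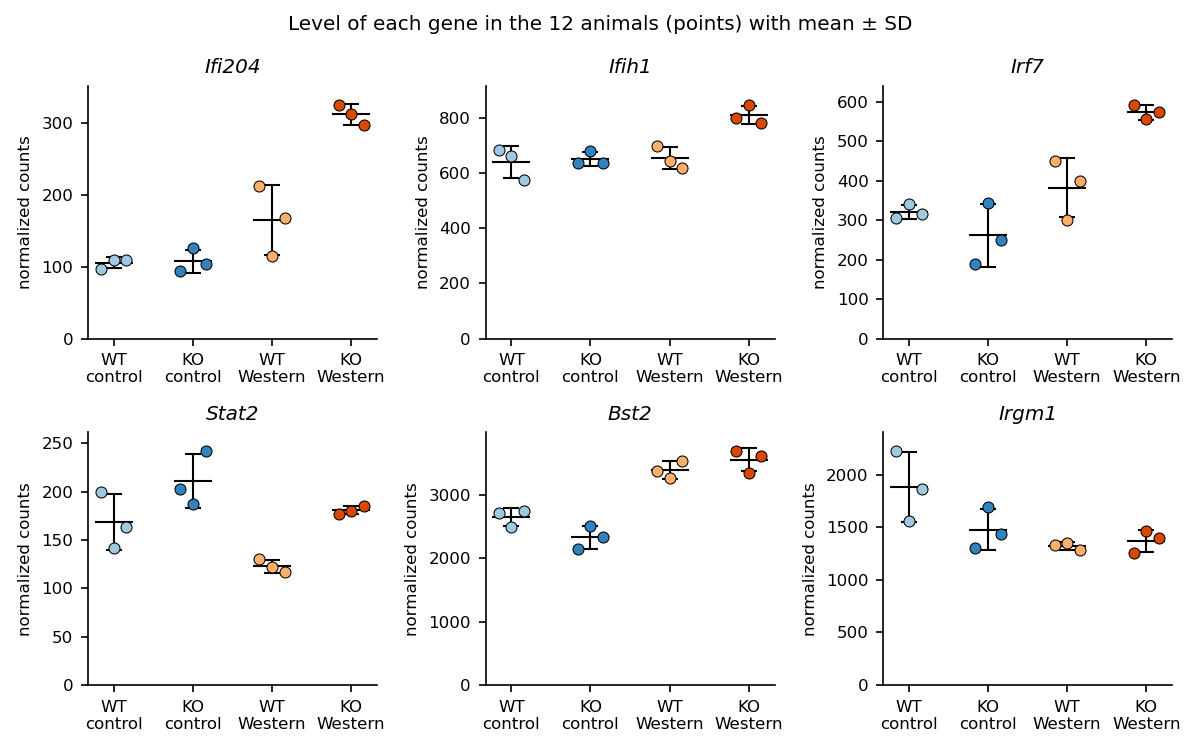
Normalized counts (vertical axes, from 0) of each gene in the 12 animals, by group (WT wild type, KO SphK2 knockout; control or Western diet), with the mean and SD (n = 3). The knockout Western-diet mice are the highest group for Ifi204, Ifih1 and Irf7, at means of 311, 811 and 574 normalized counts.

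Of the 2 sensors among the 6 genes, Ifi204 differed more. It stood at 96.4, 109.7 and 109.4 normalized counts in wild-type controls, at 93.6, 125 and 104 in knockout controls, at 212, 114 and 168 in wild-type Western-diet mice and at 325, 312 and 297 in knockout Western-diet mice. The 3 knockout Western-diet animals were above all 9 others, and the wild-type Western-diet animals were spread from the control level to well above it. The group means were 105 ± 7.62, 107 ± 16.1, 165 ± 48.8 and 311 ± 14.1 (SD, n = 3 each) in the same order. Knockout exceeded wild type on the Western diet by a log2 difference of 0.96 (SE 0.19, adjusted p = 0.0054), a fold of 1.94. In knockout mice the diet difference was 1.53 (adjusted p = 0.00023), a fold of 2.90. In wild-type mice it was 0.60 and did not pass (adjusted p = 0.076). Without wild-type Western-diet replicate 2 it was 0.84 and passed (adjusted p = 0.0032). That animal had the lowest Ifi204 of its group, so leaving it out raises the difference, and no conclusion is drawn. The control-diet difference between genotypes was 0.02 (95% interval -0.40 to 0.44).

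Ifih1, which encodes the RNA sensor MDA5, moved less. It stood at 686, 663 and 577 normalized counts in wild-type controls, at 636, 680 and 639 in knockout controls, at 700, 644 and 621 in wild-type Western-diet mice and at 801, 849 and 784 in knockout Western-diet mice. The first 3 groups overlapped and the knockout Western-diet mice were above all of them. The knockout difference on the Western diet was 0.31 (SE 0.08, adjusted p = 0.017), and the diet difference in knockout mice 0.31 (adjusted p = 0.0096). Both lay close to the median of all tested genes, 0.26 and 0.27. The first was not called without wild-type Western-diet replicate 3 (adjusted p = 0.058) or knockout Western-diet replicate 2 (adjusted p = 0.063). The diet call was lost with age as a covariate (0.24, adjusted p = 0.20), and among the knockouts the control-diet mice were labelled 250 to 259 days old and the Western-diet mice 217 to 252. In wild-type mice the diet difference was 0.03 (95% interval -0.15 to 0.21).

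Irf7 had the same order of group means as Ifi204 apart from the 2 control-diet groups. Its levels were 305, 341 and 316 normalized counts in wild-type controls, 188, 345 and 251 in knockout controls, 449, 301 and 398 in wild-type Western-diet mice and 593, 555 and 574 in knockout Western-diet mice. The knockout controls were the most spread and overlapped both wild-type groups, and the knockout Western-diet mice were again above all 9 others. The diet difference in knockout mice was 1.18 (SE 0.19, adjusted p = 0.0005), a fold of 2.26. The knockout difference on the Western diet was 0.60 (SE 0.19, adjusted p = 0.029). That second call was lost without wild-type Western-diet replicate 2 (0.44, adjusted p = 0.12) or 3, or without any of the 3 knockout Western-diet mice, at adjusted p-values up to 0.12. On the control diet knockouts had 261 ± 78.8 normalized counts of Irf7 and wild types 321 ± 18.8 (SD, n = 3 each), a log2 difference of -0.34 that did not pass (adjusted p = 0.40). Without knockout control replicate 2 and wild-type Western-diet replicate 2 together it was -0.56 (limma, adjusted p = 0.033). The first of these had the highest Irf7 of its group, so leaving it out lowers the knockout mean, and no conclusion is drawn.

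Stat2 had its highest group mean on the control diet, in the knockout, as Irgm1 did in the wild type. It stood at 200, 142 and 164 normalized counts in wild-type controls, at 203, 188 and 242 in knockout controls, at 130, 122 and 116 in wild-type Western-diet mice and at 177, 180 and 185 in knockout Western-diet mice. The wild-type Western-diet mice were the lowest 3 of the 12, below every other animal, and the knockout Western-diet mice lay within the range of the wild-type controls. The knockout difference on the Western diet was 0.55 (SE 0.14, adjusted p = 0.013) and held without each library in turn, between 0.51 and 0.59. The diet difference was -0.44 in wild-type mice (adjusted p = 0.070) and -0.21 in knockout mice (adjusted p = 0.22), and neither passed. The wild-type difference passed without wild-type control replicate 2 (-0.55, adjusted p = 0.047). That animal had the lowest Stat2 of its group, so leaving it out widens the difference, and no conclusion is drawn. On the control diet the knockout difference was 0.33 (adjusted p = 0.26).

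Bst2 separated by diet. Its levels were 2714, 2483 and 2748 normalized counts in wild-type controls, 2149, 2511 and 2329 in knockout controls, 3365, 3253 and 3533 in wild-type Western-diet mice and 3683, 3341 and 3612 in knockout Western-diet mice. All 6 Western-diet mice were above all 6 control-diet mice, and the genotypes overlapped on each diet. The diet difference was 0.35 in wild-type mice (SE 0.08, adjusted p = 0.024) and 0.61 in knockout mice (SE 0.08, adjusted p = 0.00025). The first kept its direction but not its call when any of the 3 wild-type controls, or wild-type Western-diet replicate 1 or 3, was left out (adjusted p up to 0.097), and likewise without the variance trend (adjusted p = 0.069). The knockout difference was 0.07 on the Western diet (95% interval -0.11 to 0.24) and -0.19 on the control diet (95% interval -0.36 to -0.01, adjusted p = 0.26).

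Irgm1 had its highest levels in wild-type controls. It stood at 2225, 1559 and 1866 normalized counts in wild-type controls, at 1305, 1690 and 1441 in knockout controls, at 1336, 1355 and 1286 in wild-type Western-diet mice and at 1253, 1463 and 1396 in knockout Western-diet mice. Wild-type controls were the most spread and overlapped the knockout controls but neither Western-diet group, and the other 3 groups overlapped each other. The diet difference in wild-type mice was -0.49 (SE 0.13, adjusted p = 0.036). This call was lost when any 1 of 6 libraries was left out, with the highest adjusted p without wild-type control replicate 1 (-0.36, adjusted p = 0.14). It was also lost with the sample ID set (replicate 3 of every group against replicates 1 and 2) as a covariate (adjusted p = 0.058), with age as a covariate (0.060), without the variance trend (0.069), with the 2 groups alone (0.061) and by the equal-variance test (0.084). The diet difference in knockout mice was -0.10 (95% interval -0.38 to 0.17), and the knockout difference was -0.34 on the control diet (adjusted p = 0.18) and 0.05 on the Western diet (95% interval -0.23 to 0.32).

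The difference of the diet effects, knockout minus wild type, was 0.94 for Ifi204 and 0.94 for Irf7, each with an adjusted p of 0.060. For both the diet difference in knockout mice was larger than in wild-type mice. Without wild-type Western-diet replicate 1 both passed, Ifi204 at 1.14 (adjusted p = 0.0078) and Irf7 at 1.06 (adjusted p = 0.017). That animal had the highest level of both genes in its group. Leaving it out therefore enlarges the difference, and no conclusion is drawn. Without both libraries that stood apart, which were picked by the levels of these genes, Irf7 passed (adjusted p = 0.023) and Ifi204 did not, at 0.81 (adjusted p = 0.053). For Irgm1 the difference was 0.39, for Ifih1 0.28, for Bst2 0.25 and for Stat2 0.23, at adjusted p-values between 0.13 and 0.45. The authors' deposited table of fold changes names no diet; over its 291 genes not listed at 0, its fold changes had the sign of the Western-diet difference in 291 and of the control-diet difference in 176. In the authors' deposited table the log2 fold changes were 1.02 for Ifi204, 0.65 for Stat2, 0.61 for Irf7, 0.32 for Ifih1, 0.07 for Bst2 and 0.05 for Irgm1, with the same 4 genes at an adjusted p under 0.05.

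**Figure D3:**
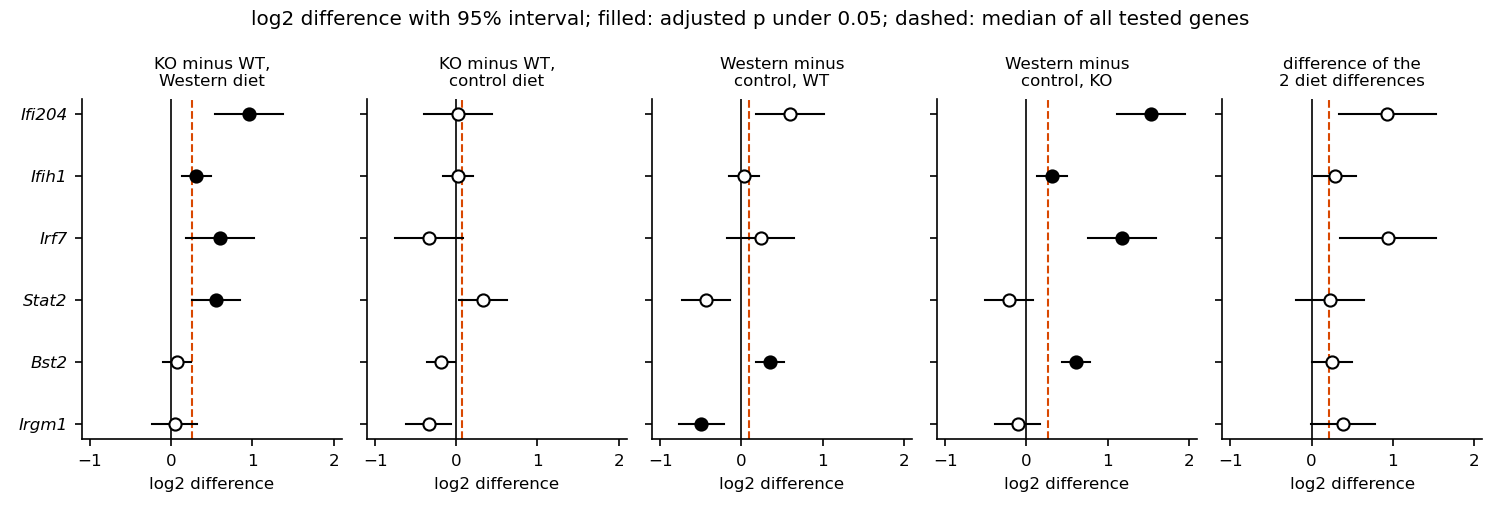
The log2 difference of each gene (points) with its 95% interval (lines) in the 5 comparisons, filled where the adjusted p was under 0.05; the dashed line is the median of all 453 tested genes. Ifi204 and Irf7 lie farthest to the right in knockout mice on the Western against the control diet, at 1.53 and 1.18, and no point of the last panel is filled.

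The size of these differences depended on how the libraries were scaled. Under the authors' scaling the median gene was already 0.26 higher in knockouts on the Western diet. When each library was recentred on its median ratio to the others, the differences became 0.70 for Ifi204, 0.35 for Irf7, 0.30 for Stat2 and 0.06 for Ifih1, while Bst2 and Irgm1 turned to -0.19 and -0.21. Ifi204 alone passed under all 4 other scalings tried, at 0.39 to 0.89. Irf7 passed in 1 of them, voom (0.53, adjusted p = 0.016). Stat2 and Ifih1 passed in none, and recentring on the library's median gene left Stat2 at -0.01 and Ifih1 at -0.26. Under that last scaling Bst2 (-0.50, adjusted p = 0.0085) and Irgm1 (-0.52, adjusted p = 0.017) were called lower in knockouts. So were 127 of the 453 tested genes, and the median difference of all was -0.30. In the diet comparison of knockout mice, Ifi204 (0.81 to 1.82) and Irf7 (0.44 to 1.45) passed under all 4. Bst2 passed under 3 of them and stood at -0.13 after recentring on the library's median gene, where Ifih1 was called lower (-0.42, adjusted p = 0.0066). Under that scaling 224 of the 453 tested genes were called lower in this comparison, with the median of all at -0.46. Stat2 was called lower in this comparison under 3 of the 4, at -0.94 to -0.48, and Irgm1 under 2, at -0.84 and -0.37. Of all tested genes 93 were called lower by median ratio and 111 by quantile normalization. In wild-type mice the diet difference of Irgm1 stayed negative under the 4 scalings and was called in all but voom. That of Stat2 was called lower in 3, at -0.72 to -0.51. Of the 453 tested genes, 22 were called lower there by median ratio, 60 by library median and 22 by quantile normalization. The wild-type diet difference of Bst2 passed in 2 of the 4 and did not pass after recentring on the median ratio (0.28, adjusted p = 0.065) or on the library's median gene (0.07, adjusted p = 0.71). That of Ifi204 stayed positive under the 4 scalings, at 0.32 to 0.67, and passed in 1 of them (adjusted p = 0.047). For the knockout difference on the Western diet, the equal-variance test did not call Irf7 (adjusted p = 0.068), and in the 8 animals with sample IDs 1 to 8, 2 in each group, none of the 6 genes passed, with Ifi204 at 1.03 (adjusted p = 0.15).

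**Figure D4:**
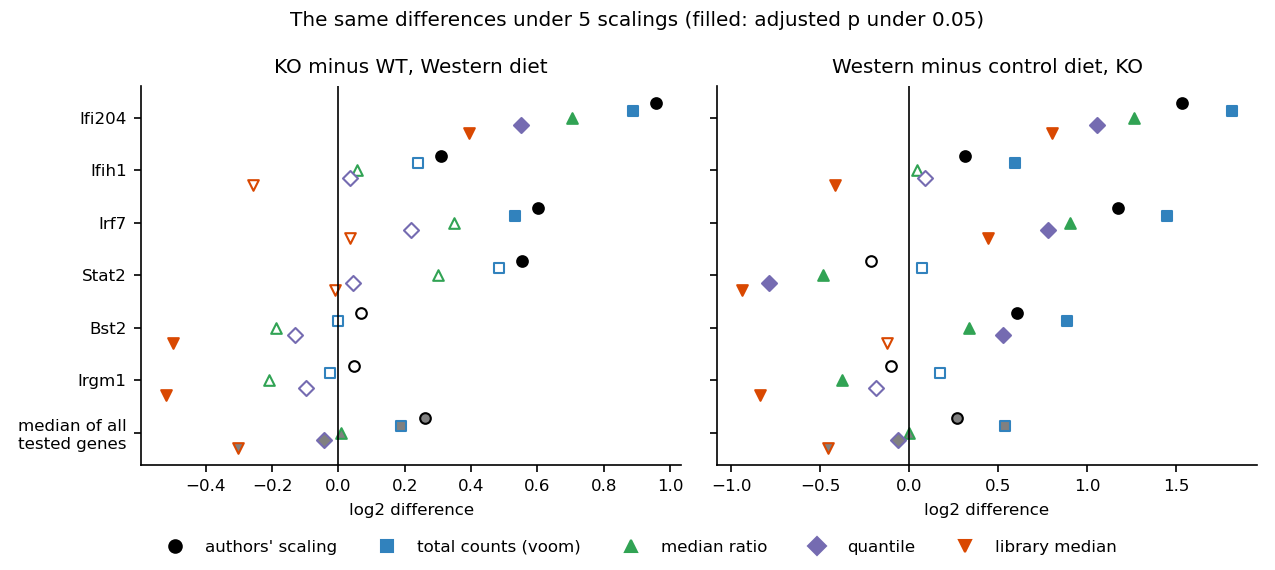
The log2 differences of the 6 genes in 2 comparisons under the authors' scaling and 4 others (symbols), filled where the adjusted p was under 0.05; the lowest row gives the median of all tested genes under each scaling. Ifi204 is filled and above 0 throughout, whereas Ifih1, Stat2, Bst2 and Irgm1 lie on both sides of 0 in at least 1 of the panels.

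Under the authors' scaling, the summed markers of several cell types had their highest median in the knockout Western-diet mice. Of 20 macrophage and monocyte markers, 16 were on the panel and tested. In knockouts, compared with wild types, on the Western diet 14 were higher and 1 lower. Of all 453 tested genes 32.2% were higher there and 15 lower. The summed level of the 16 macrophage and monocyte markers was 4185 to 4478 normalized counts in wild-type controls and 4576 to 5339 in knockout controls. It was 3876 to 7468 in wild-type Western-diet mice and 9785 to 10983 in knockout Western-diet mice. Of 9 plasmacytoid dendritic cell markers 4 were on the panel (Tcf4, Ccr9, Irf8 and Tlr9), with a summed level of 413 to 445, 425 to 471, 494 to 585 and 690 to 741 in the same order of groups. For 14 of 17 T and NK cell markers the sums were 384 to 407, 393 to 444, 345 to 462 and 499 to 577, and for the 8 B cell markers 260 to 286, 217 to 266, 228 to 307 and 360 to 416. For 6 of 8 neutrophil markers they were 191 to 243, 322 to 986, 250 to 417 and 826 to 878, so that both knockout groups overlapped. For 5 of 7 endothelial markers they were 698 to 721, 710 to 767, 775 to 942 and 1165 to 1266. In knockouts on the Western diet, 3 of 12 tested T and NK cell markers and 3 of 7 B cell markers were higher. So were 2 of 5 neutrophil, 2 of 4 plasmacytoid dendritic cell and 4 of 5 endothelial markers. The diet in knockout mice raised 14 of the 16 macrophage and monocyte markers and lowered 2. It raised 5 of 5 endothelial and 3 of 4 plasmacytoid dendritic cell markers. Of those tested it raised 2 of 12 T and NK cell, 2 of 7 B cell and 0 of 5 neutrophil markers. Of all tested genes 37.3% were higher there. The plasma protein genes of hepatocytes had sums of 78672 to 91308, 77109 to 165445, 60926 to 75126 and 54928 to 64697. The lowest median sum was that of the knockout Western-diet mice. Of the 8, 2 were lower in knockouts on the Western diet, where 15 of the 453 tested genes were. The diet lowered 6 in knockout and 1 in wild-type mice, beside 7.95% and 3.75% of tested genes. The part of cell numbers in the interferon gene differences was not tested.

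Set against the summed macrophage markers within each library, the 6 genes separated. Ifi204 stood at 24.4 ± 2.52 normalized counts per 1000 of the 16 macrophage markers in wild-type controls and at 21.8 ± 1.51 in knockout controls. On the Western diet it stood at 29.4 ± 0.96 in wild-type and 30.3 ± 2.54 in knockout mice (SD, n = 3 each), and these 2 groups overlapped. Irf7 stood at 74.4 ± 6.80, 52.6 ± 11.7, 69.9 ± 8.90 and 55.9 ± 5.04 in the order wild-type control, knockout control, wild-type Western diet and knockout Western diet. In the same order Ifih1 stood at 149 ± 12.6, 133 ± 5.79, 124 ± 37.6 and 78.8 ± 2.60. Stat2 stood at 38.9 ± 5.34, 43.3 ± 7.62, 23.3 ± 7.35 and 17.6 ± 1.03. Bst2 stood at 613 ± 24.2, 475 ± 8.02, 642 ± 194 and 346 ± 37.2. Irgm1 stood at 435 ± 62.2, 300 ± 15.7, 254 ± 87.4 and 133 ± 4.82. The summed markers by which these levels were divided were themselves highest in the knockout Western-diet mice. On this ratio the knockout Western-diet mice were not the highest group for any gene but Ifi204. These ratios are descriptions with no test.

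**Figure D5:**
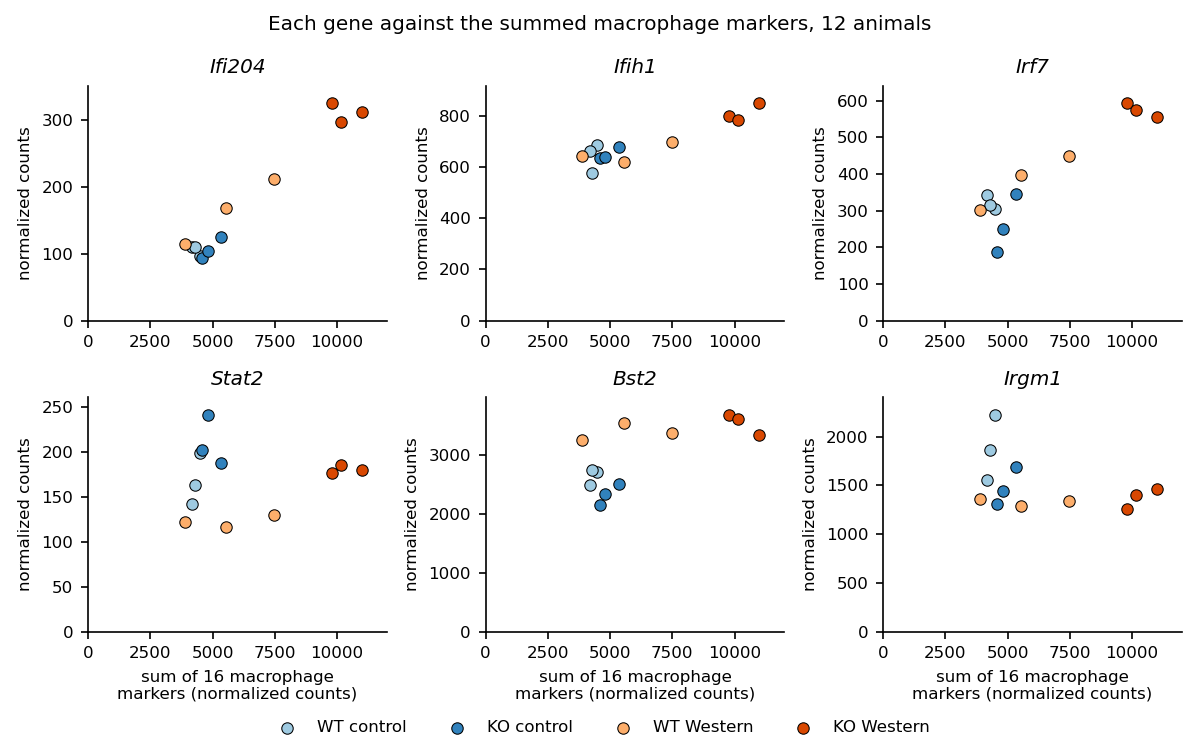
Normalized counts of each gene (vertical axes) against the summed level of 16 macrophage and monocyte markers (horizontal axes) in the 12 animals, coloured by group. The points of Ifi204 climb with the sum, from 93.6 to 125 in the control-diet mice to between 297 and 325 in the knockout Western-diet mice, while those of Stat2 and Irgm1 do not.

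The panel genes most like each of the 6 over the 12 libraries were named by Pearson correlation on the log2 scale, with the value left after each gene was centred on its group means beside it; all values share the libraries and their scaling. Ifi204 was most like Tgfbi, a matrix protein gene that macrophages express (0.99, and 0.92 within groups), and the leukocyte integrin genes Itgb2 (0.99 and 0.92) and Itgax (0.99 and 0.92). Irf7 was most like Ifngr2, a chain of the interferon gamma receptor (0.97 and 0.92), then Itgb2 (0.93 and 0.82) and Tgfbr1 (0.93 and 0.79). Ifi204 and Irf7 were also alike (0.93, and 0.85 within groups). Ifih1 was most like Il10ra, a chain of the interleukin 10 receptor (0.94 and 0.79), but this fell to 0.40 when libraries were recentred on the median ratio. Stat2 was nearest to the leukotriene receptor gene Ltb4r1 (0.92 and 0.63) and the macrophage scavenger receptor gene Marco (0.85 and 0.44). Bst2 was nearest to Cd83 (0.94), of which 0.37 was left within groups, and Il27ra (0.91 and 0.70). Irgm1 was nearest to Ahr, the aryl hydrocarbon receptor gene (0.87 and 0.69), but by rank (Spearman) the value over the 12 libraries was 0.59. Between Stat2 and Ifi204 the value was -0.12, and between Irgm1 and Ifi204 -0.47, so the 6 genes did not vary as 1 block.

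Around these 6 genes, 7 lists by role held 89 other genes of the interferon pathways, of which 42 were on the panel and 40 were tested. On the Western diet 16 of the 40 were higher in knockouts and none was lower, beside 32.2% of all tested genes higher. In knockout mice the diet raised 18 of the 40 and lowered 2, where 37.3% of all tested genes were higher and 7.95% lower. In wild-type mice it raised 1 and lowered 1, where 4.86% and 3.75% of tested genes did so. On the control diet limma called none of the 40, with 7 at an unadjusted p under 0.05, beside 77 of the 453 tested genes. There voom called 3 of the 40 lower, and 18 of the 453, and the equal-variance test none of the 40. The count of 16 was 4 without wild-type Western-diet replicate 2, 6 without replicate 3, and 7, 5 and 6 without knockout Western-diet replicates 1, 2 and 3. After recentring on the median ratio it was 2 higher and 2 lower.

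Of the interferon genes themselves, Ifna2 and Ifnb1 were below the filter, at means of 15.0 and 12.7 normalized counts, and Ifna1 and Ifng lay just above it. Ifna1 was 22.3 ± 5.64 in knockout and 21.5 ± 7.36 in wild-type Western-diet mice (SD, n = 3 each), and Ifng 23.9 ± 4.02 and 24.8 ± 5.64. Neither passed, at this low level, in any comparison. Among nucleic acid sensors and their adaptors 4 of 6 were higher in the knockout on the Western diet, beside 32.2% of all tested genes. The 4 included Tmem173, which encodes the adaptor STING that signals downstream of DNA sensors (105 ± 5.38 against 68.6 ± 3.84, log2 difference 0.61, adjusted p = 0.017). The Toll-like receptor genes Tlr8 and Tlr3 were higher by 0.96 and 0.55. Of 6 kinases and factors that switch on interferon genes 1 was higher, Irf5 (0.63, adjusted p = 0.045), beside the same 32.2%. The kinase genes Ikbke and Irak4 differed by 0.30 and 0.24 without passing.

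Tyk2 and Jak1, which encode the kinases of the type I receptor, differed by 0.25 and 0.16 on the log2 scale without passing. Of 4 further interferon-induced antiviral genes 2 were higher, Ifitm1 (0.58) and Ifit2 (0.84), beside 32.2% of all tested genes. Mx1 was 183 ± 30.8 against 154 ± 36.5 and did not pass. Of 12 genes of the interferon gamma receptor and its main response 7 were higher, beside the same 32.2%. Among the 12 the smallest p-values were those of Ifngr1 (644 ± 44.3 against 408 ± 62.3, log2 difference 0.67, adjusted p = 0.0033), Irf8 (0.90) and the immunoproteasome gene Psmb10 (0.64). The chemokine gene Cxcl9 was 418 ± 11.4 against 180 ± 27.2, a difference of 1.22 (adjusted p = 0.024). Of 5 inhibitors of interferon signalling 1 was higher, the phosphatase gene Ptpn6 (0.39), again beside 32.2%. Cish (-0.97) and Socs1 (0.42) did not pass. Under the 4 other scalings Ifngr1 passed in 3, Irf8 in 2, and Tlr8, Irf5, Ifit2, Psmb10 and Cxcl9 in 1 each, while Tmem173, Tlr3, Ifitm1 and Ptpn6 passed in none. Recentring on the library's median gene turned Tlr3 to -0.01 and Ptpn6 to -0.18, where the median of all tested genes was -0.30. Quantile normalization turned Tlr3 to -0.0074. Irf5 passed in 3 of 12 fits that left out 1 library.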

How the data were processed

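RNA of 12 mice was measured with barcoded NanoString probes, per the labels' protocols, and groups were taken from the genotype and diet labels. The deposited workbook holds normalized counts as log2 values, per the file headers; the authors' normalization and software are not given in the sources used here. On the linear scale, 100% of the values in each library were whole numbers times that library's factor (tolerance 0.001), which gave the recovered counts. A table of fold changes with p-values, raw and adjusted, was deposited by the authors with no diet named, from a test not given in the sources used here, and is read here as the Western-diet comparison from its values. A series-wide value table of the same log2 values, deposited by the authors, is shifted by 1 animal: 0 of its 12 columns match the sample they are named for, so it served only as an alternative, and every difference rests on the workbook's header.

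Levels are normalized counts (2 to the power of the deposited value). Tests used log2(normalized count + 1), which understates the change of low genes, on 453 of 547 genes with a mean of at least 20; 94 were not tested. limma 3.58.1 in R 4.3.3 modelled the 12 libraries together (1 mean for each group, moderated variances with a trend) in 5 two-sided comparisons, each adjusted by Benjamini-Hochberg at 0.05. An exact permutation test of 3 animals against 3 reaches 0.1 at the least and was not run. The scripts were tested on simulated data. Promoter windows and names came from RefSeq tables (GRCm38.p6), matched by gene ID for 6 genes, 5 with a window; no genome was used. The calls by role list leave out 1 result that is not reported here; the counts over all lists include it.

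The 6 genes and all lists were chosen with earlier results of these data known. Besides the 6, genes were picked per role list: up to 3 by smallest p for knockout against wild type on the Western diet. Up to 2 were picked by smallest p in the interaction, and per gene the 3 most correlated genes. Not all of those picked are named above. Other settings tried concerned the scaling, pseudocount, low-value filter, variance model, covariates, source and libraries; those based on sample IDs in the workbook header (1 to 8, and 17 to 20 for replicate 3 of each group) were added after seeing the data.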

Additional observations from a re-analysis of the deposited data

Results flagged for a closer look

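The transcription factor gene Irf1, a member of the interferon gamma list, had a diet difference that differed between genotypes: -0.62 in wild-type mice and 0.16 in knockout mice, a difference of 0.78 (SE 0.17, adjusted p = 0.041, limma). It stood at 855 ± 108 normalized counts in wild-type controls, 617 ± 90.9 in knockout controls, 555 ± 41.3 in wild-type Western-diet mice and 684 ± 18.3 in knockout Western-diet mice (SD, n = 3 each). The interaction passed in 3 of 12 fits that left out 1 library, and under 1 of 4 other scalings (voom). None of the 6 interferon response genes had a called difference of this kind.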

How the results depend on the processing

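No paired analysis was possible because the labels give no replicate numbers; the sample ID set, which separates replicate 3 from replicates 1 and 2 in every group, was tried as a covariate. Depth limits Ifna1, Ifng, Ifna2 and Ifnb1, the interferon genes near or below the filter. Leaving out 1 library at a time, or both libraries that stood apart, kept the calls of Ifi204 and Stat2 for the knockout difference on the Western diet and of Ifi204, Irf7, Bst2 and Ifih1 for the diet difference in knockout mice. Where a value below differs from that of the report, the cause was not tested, save that the sample ID subset holds fewer animals and the value table holds other animals' values.

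Knockout difference, Western diet. The number of the 6 genes called was 1 after recentring on the median ratio, 3 by library median (Ifi204 higher, Bst2 and Irgm1 lower), 1 after quantile normalization, 2 with voom, and 0 with the value table or with sample IDs 1 to 8 alone. All genes called, 161 (146 higher, 15 lower), were 112 (69 and 43) by median ratio, 152 (25 and 127) by library median, 96 (42 and 54) by quantile, 110 (99 and 11) with voom, 0 with the value table and 1 with IDs 1 to 8. Signs turned by library median for Ifih1 (-0.26), Stat2 (-0.010), Bst2 (-0.50) and Irgm1 (-0.52), where the median of all tested genes was -0.30. Bst2 was -0.19 by median ratio, -0.13 by quantile, -0.0024 with voom and -0.031 with the value table; Irgm1 was -0.21, -0.10, -0.025 and -0.12.

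Knockout difference, control diet. The number called was 1 by quantile (Irgm1, lower), 3 with voom (Bst2, Irf7 and Irgm1, lower) and 1 without both libraries that stood apart (Irf7, lower). All genes called, 13 (9 higher, 4 lower), were 21 by median ratio (14 and 7), 12 by library median (5 and 7), 23 by quantile (15 and 8), 26 with voom (8 and 18), 7 by the equal-variance test, 7 with only the 2 groups compared, 5 with age as a covariate, 0 with the value table and 1 with IDs 1 to 8. Ifi204 turned to -0.035 by median ratio, -0.089 by library median, -0.11 by quantile, -0.26 with voom, -0.77 with the value table and -0.091 without both libraries. Ifih1 turned to -0.033, -0.088, -0.041, -0.26, -0.28 and -0.0057 in the same order, and to -0.035 with IDs 1 to 8. Stat2 was -0.40 with the value table.

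Diet difference, wild type. The number called was 1 (Bst2) with voom, the equal-variance test, age, the 2 groups alone or the sample ID set as a covariate. It was 0 without the variance trend, with the value table or with IDs 1 to 8. It was 4 without both libraries that stood apart, which were picked by the levels of these genes. All genes called, 39 (22 higher, 17 lower), were 39 by median ratio (17 and 22), 42 by quantile (20 and 22), 26 with voom (19 and 7), 71 by library median (11 and 60), 21 without the variance trend, 25 by the equal-variance test, 18 with age, 19 with the 2 groups alone, 25 with the sample ID set, 114 without both libraries, 0 with the value table and 0 with IDs 1 to 8. Ifih1 turned to -0.044 by median ratio, -0.25 by library median, -0.26 with the value table and -0.0071 with IDs 1 to 8. Irf7 was -0.042 by library median, where the median of all tested genes was -0.19. With the value table Ifi204 was -0.60, Irf7 -0.33 and Bst2 -0.17.

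Diet difference, knockout. The number called was 3 with age or with IDs 1 to 8 (Ifih1 lost), 5 by median ratio (3 higher, 2 lower), 5 by library median (2 higher, 3 lower), 4 by quantile (3 higher, 1 lower) and 0 with the value table. All genes called, 205 (169 higher, 36 lower), were 201 by median ratio (108 and 93), 279 by library median (55 and 224), 193 by quantile (82 and 111), 265 with voom (247 and 18), 92 with age, 62 with IDs 1 to 8 and 0 with the value table. Ifih1 was -0.42 and Bst2 -0.13 by library median, where the median of all tested genes was -0.46. Stat2 was 0.072 and Irgm1 0.18 with voom, and with the value table Stat2 was 0.49, Irgm1 0.14 and Bst2 -0.066.

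Difference of diet effects. The number called was 2 with a minimum of 50 normalized counts, 2 by median ratio, 4 with voom and 1 without both libraries. All genes called, 6 (5 higher, 1 lower), were 39 with that minimum, 2 without a filter, 23 with a pseudocount of 10, 2 without the variance trend, 1 with age, 1 with the sample ID set, 38 by median ratio (16 and 22), 65 by library median (7 and 58), 27 by quantile (13 and 14), 88 with voom (83 and 5), 0 with IDs 1 to 8 and 0 with the value table. Stat2 was -0.20 by quantile and -0.23 by library median, where Ifih1 was -0.17, Bst2 -0.20 and Irgm1 -0.066. The median of all tested genes by library median was -0.23.

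Without each library in turn, the number of the 6 called ranged from 2 to 4 (knockout, Western diet), 0 to 3 (diet, wild type) and 0 to 2 (difference of diet effects). All genes called ranged from 84 to 177 (knockout, Western diet), 6 to 43 (knockout, control diet), 3 to 94 (diet, wild type) and 1 to 100 (difference). Irgm1 ranged from -0.0026 to 0.11 (knockout, Western diet), Ifi204 from -0.091 to 0.12 and Ifih1 from -0.049 to 0.076 (knockout, control diet), and Ifih1 from -0.045 to 0.080 (diet, wild type).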
